A study of Mus musculus with 4 samples.

Results

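High-fat diet was set against chow in the liver of LASS2-/- male mice, on the array labelled LASS2-/- HFD and the array labelled LASS2-/- chow, which are 2 of the 4 arrays of the series. Lass2 is the former name of Cers2, which encodes a ceramide synthase. The arrays were Affymetrix expression arrays hybridised with labelled liver RNA, and each group had 1 array. The chow supplied 10% of its calories as fat and the high-fat diet 60%, and both LASS2-/- groups were put on their diet at 3 weeks of age. Both therefore share the genotype, the sex, the tissue and the age at which feeding began. The labels used here do not state when liver was taken, how the knockout allele was made, or whether each RNA came from a single mouse or from pooled mice. The other pair of arrays, labelled WT chow and WT HFD, had the same sex and diets, and its values appear only where they are set beside those of the knockout. The LASS2-/- arrays are called the chow array and the high-fat array from here on.

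Ceramide synthases join a fatty acyl chain to a sphingoid base, and CERS2 is the member that makes very-long-chain ceramides in liver. A fat-rich diet loads hepatocytes with fatty acids, which are esterified to triglyceride and stored in lipid droplets whose coat proteins govern how fast the fat is released. Sterol synthesis, bile acid synthesis and the sex-biased programme driven by pulses of growth hormone are other liver functions that diet is known to alter.

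Values are log2 signals, so that a difference of 1 is a 2-fold difference in signal. Of 12493 genes that entered, 11952 reached the array's own median signal, used here as a floor at 6.28 for the chow array and 6.19 for the high-fat array, on at least 1 of these 2 arrays, and 541 did not. Where 1 array lay under its floor the ratio is a bound and is given as "at least". With 1 array per group there is no replicate, so no value has an error and no difference a test, and the words higher and lower describe these 2 arrays only. In bulk liver RNA a smaller number of cells of a type and less RNA per cell cannot be told apart. All the genes of a list were read on the same 2 arrays, so their ratios are not independent.

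The targeted gene, Cers2, read 12.32 on the chow array and 12.32 on the high-fat array, against 12.46 on the array labelled WT chow and 12.25 on the array labelled WT HFD. The knockout label is therefore not borne out by a lower signal of this probe set, whose position in the transcript relative to the deleted part is unknown here. The arrays are named throughout by their labels. The hepatocyte transcripts that define liver were bright on both arrays: Alb, which encodes albumin, had 15.27 on chow and 15.02 on the high-fat array. Ttr, which encodes transthyretin, had 15.52 and 15.34. Of 12 measured hepatocyte markers 0 were higher on the high-fat array, and 1 was at least 2-fold lower, with a median log2 ratio of -0.23. After quantile normalization 3 of them lay above 0. Pancreatic acinar markers were dim, with summed linear signals of 1904 on chow and 1591 on the high-fat array for the 3 measured.

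Of the 11952 genes, 389 were at least 2-fold higher on the high-fat array (3.25%) and 236 were at least 2-fold lower (1.97%), together 5.23%. With the arrays scaled to equal medians the counts were 495 and 189, so that the share of higher genes among all of these moved from 62.2% to 72.4%. The median log2 ratio over all genes was 0.02, or 0.10 with equal medians, and the central 95% of genes lay between -0.92 and 1.10. At least 4-fold, 44 genes were higher and 22 lower, and at least 10-fold, 7 were higher and 2 lower. Ratios scattered more among dim genes, with a standard deviation of 0.540 in the dimmest and 0.391 in the brightest of 4 equal groups by signal. Of 10111 genes at or above the floor on all 4 arrays, 38 were at least 2-fold above each other array on the high-fat array. On the chow array 11 were. The share of all genes with their highest signal on a given array was not computed. Counts of highest signal in the lists below therefore have no such share beside them.

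A second probe set for the same gene gives the only repeated reading on these arrays, and it comes from the same RNA. It was compared in the 4525 genes with at least 2 probe sets at or above the floor on both arrays. Probe sets under a floor, such as the discordant ones of Ctse and Themis below, were thus left out. The log2 ratios of the 2 brightest such probe sets differed with a standard deviation of 0.408 and had the same direction in 68.8%. Among the 109 of these genes that were at least 2-fold higher, the other probe set was also higher in 95, and in 43 of them it was itself at least 2-fold higher. Among 63 lower genes it was lower in 56 and at least 2-fold lower in 28. A second probe set past 2-fold is also counted in the direction, so the size could not repeat more often than the direction.

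The highest ratio of all genes above the floor on both arrays belonged to Cidea, a lipid droplet protein that promotes droplet fusion. Its log2 signal was 6.29 on chow, close to the floor, and 11.82 on high-fat diet, a 46.2-fold difference. Lcn2, which encodes the iron-siderophore binding protein lipocalin 2, went from 8.10 on chow to 13.19, a 34.0-fold difference. Ly6d, a surface protein of the Ly6 family, had 6.68 and 11.59, a 30.2-fold difference. Cbr3, a carbonyl reductase, had 7.34 and 11.86, a 23.0-fold difference, and Ubd, a cytokine-inducible relative of ubiquitin, had 7.40 and 11.69, a 19.5-fold difference. These 5 genes were dim on chow and moderately bright to bright on high-fat diet.

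Ctse, which encodes the protease cathepsin E, had 6.51 on chow and 11.04 on high-fat diet, a 23.2-fold difference, but its other probe set went the other way, with 6.75 on chow and a signal under the floor on high-fat diet, and the mean of the probe sets had a log2 ratio of 1.91. Themis, a gene of T cell development, had 6.31 and 9.70, a 10.5-fold difference, and the next probe set had 5.84, under the floor, and 6.23. The size of the Themis ratio thus rests on 1 probe set, and with its probe sets averaged the log2 ratio was at least 1.69. Elovl7, a fatty acid elongase, had 6.44 and 9.10, a 6.32-fold difference, and was higher by all 5 of its probe sets, of which 4 were under the floor on chow and give only bounds. Snai2, a zinc-finger transcription factor, had 7.28 and 9.87, a 6.03-fold difference, and its other probe set had 7.95 on high-fat diet and lay under the floor on chow, at least 1.67 higher on the log2 scale.

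The lowest ratio belonged to Hsd3b5, a steroid dehydrogenase expressed mainly in male liver, with 12.61 on chow and 8.23 on high-fat diet, 20.8-fold lower. Lepr, the leptin receptor, had 11.59 and 7.36 and was 18.7-fold lower, and all 3 of its probe sets were lower, with a mean log2 ratio of -3.41. Fabp5, a fatty acid binding protein, had 14.46 and 11.95, 5.72-fold lower by the brighter of 2 probe sets, which were both lower. Slc25a30, a mitochondrial carrier, had 13.83 and 11.50 and was 5.03-fold lower, with 4 of 4 probe sets lower. Serpina4-ps1, a serpin pseudogene, had 14.55 and 12.51, 4.11-fold lower, and signal of related serpins cannot be separated from it here. Chka, the choline kinase that starts phosphatidylcholine synthesis, had 10.38 and 8.35 and was 4.08-fold lower, with 3 of 3 probe sets lower. The remaining genes among the 15 lowest were Egr1, Btg2, Gadd45g, Onecut1, Tff3 and Ugt2b38, described with their groups, and Mpp4, H2-Bl and Cdc42ep5, which were 5.32-fold, 4.93-fold and 4.33-fold lower.

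**Figure D1:**
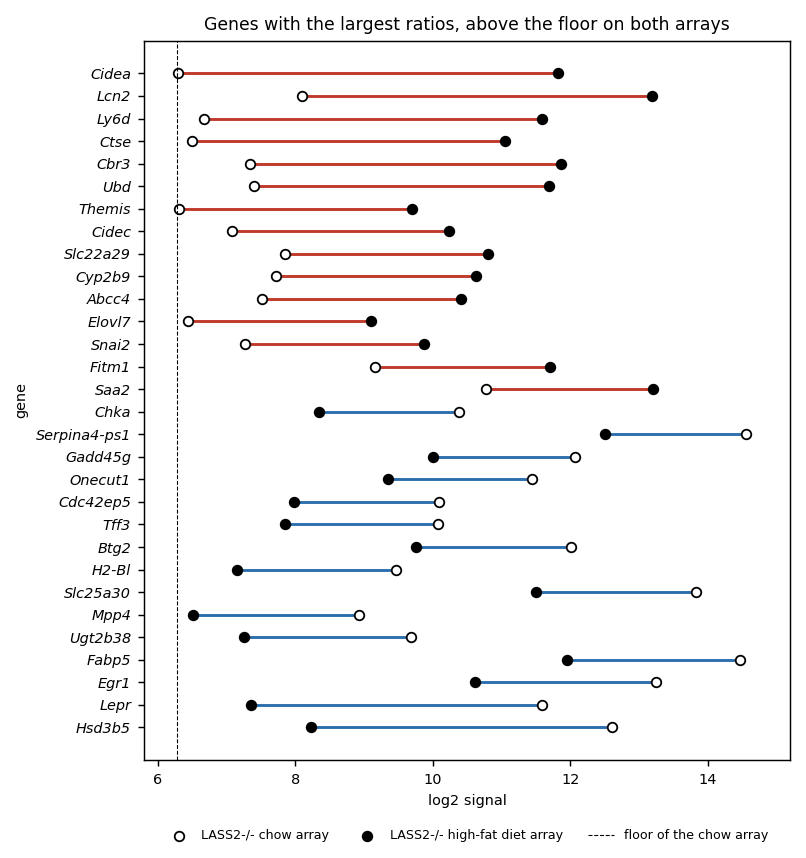
Log2 signal (x axis) of the 15 highest and 15 lowest genes by ratio among those above the floor on both LASS2-/- arrays (y axis), with open circles for chow, filled circles for high-fat diet and a dashed line at the floor of the chow array. Cidea and Themis start at that floor on chow, whereas the genes lower on high-fat diet span log2 signals of 8.93 to 14.55 on chow.

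Genes under the floor on 1 array have only a bound. Among those higher on high-fat diet, Ms4a7, a membrane protein of macrophages, was at least 6.50-fold higher and the macrophage elastase Mmp12 at least 6.39-fold higher. Mogat1, which makes diacylglycerol from monoacylglycerol, was at least 6.10-fold higher, Gipc2, a PDZ-domain protein, at least 5.85-fold, Hao2, a peroxisomal hydroxyacid oxidase, at least 5.64-fold, and Tekt5 at least 5.33-fold higher. In the other direction Leng9 was at least 7.69-fold lower, with 2 of its 3 probe sets lower, Abhd1 at least 6.09-fold, Cabyr at least 4.41-fold, the transcription factor Ikzf4 at least 4.08-fold, C2cd4b at least 3.31-fold and Upk1b at least 3.07-fold. Without probe sets prone to cross-hybridisation the bound for Upk1b was a log2 ratio of at most -0.83. With probe sets averaged, the bounds were at most -1.32 for Leng9 and at most -1.12 for Cabyr. These bounds move with the floor by construction.

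Lists of genes by function covered 823 genes, of which 695 were measured. Of these, 93 were higher by 2-fold or more and 43 lower by as much, where the shares over all 11952 genes were 3.25% and 1.97%. The lists were chosen with earlier results of these data known, so no excess is read from these counts. The lists with the highest medians held fetal and tumour associated genes, cholesterol synthesis genes and cytoskeletal genes, and those with the lowest held growth hormone and leptin signalling, male-biased genes and immediate early genes.

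**Figure D2:**
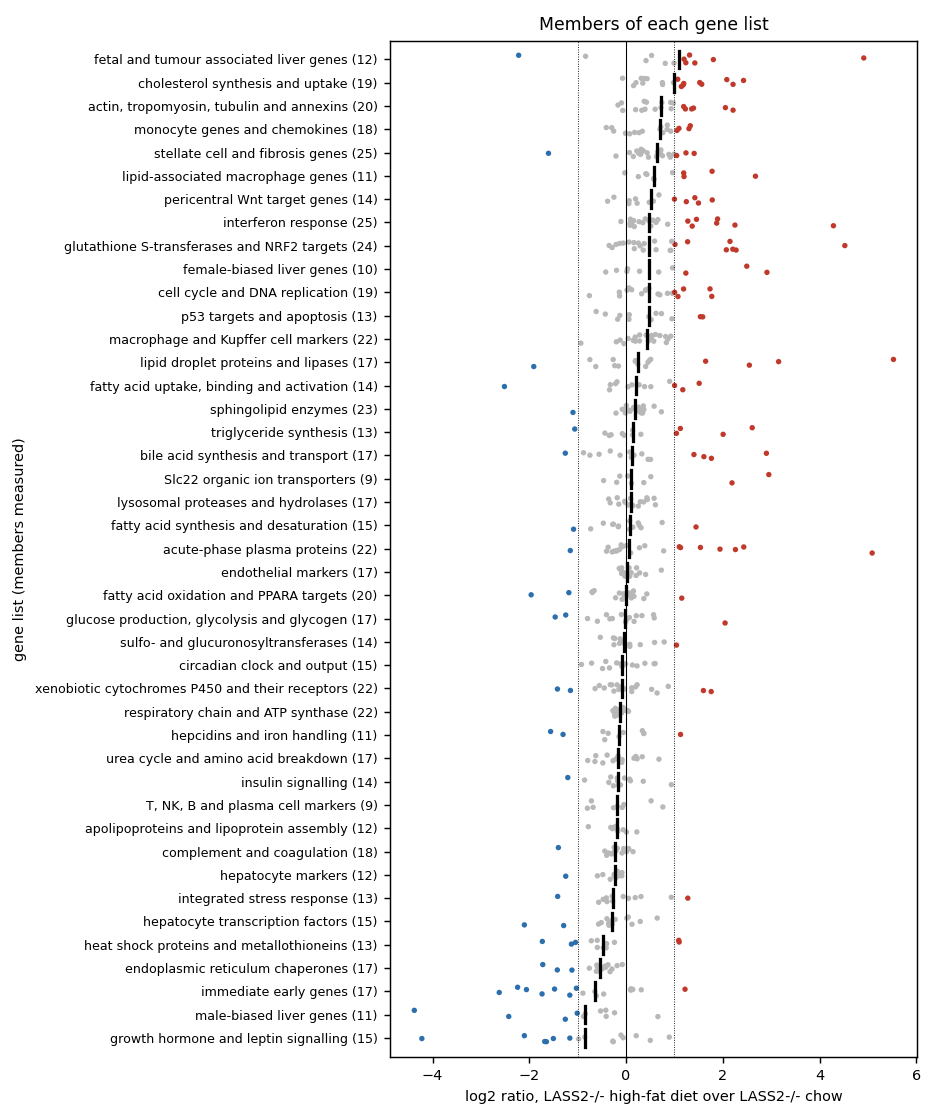
Log2 ratio of high-fat diet over chow in LASS2-/- liver (x axis) for the members of the gene lists (y axis, with the number measured), 1 point per gene, a bar at the list median and dotted lines at 2-fold. List medians run from 1.09 for the fetal and tumour associated genes to -0.85 for growth hormone and leptin signalling, and most points of most lists lie within 2-fold.

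Lipid droplet genes split by member. Of 17 measured, 4 were at least 2-fold higher and 1 lower, and the median log2 ratio was 0.24. Beside Cidea, its relative Cidec, which enlarges droplets, had 7.08 on chow and 10.23 on high-fat diet, 8.90-fold higher. Fitm1, which helps package fat into droplets, had 9.16 and 11.71 and was 5.85-fold higher, and the droplet coat protein gene Plin4 had 8.76 and 10.41, 3.13-fold higher. Hilpda, which restrains the lipase ATGL, had 9.44 and 7.53 and was 3.75-fold lower. The coat protein gene Plin2 had 14.43 and 14.27 and was among the brightest members on both arrays. The members at least 2-fold apart had chow signals from 6.29 for Cidea to 9.44 for Hilpda. Within that range Lipe, at 6.84 on chow, and Pnpla3, at 7.25, had log2 ratios of only 0.49 and 0.45. The lipase genes Pnpla2, Lipe and Mgll, the lipase regulators G0s2 and Abhd5, and Cideb, Plin3, Plin5, Fitm2, Bscl2 and Pnpla3 lay between -0.75 and 0.51 on the log2 scale.

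Fatty acid uptake and triglyceride synthesis showed the same mixture. Cd36, a fatty acid translocase, had 11.18 on chow and 12.69 on high-fat diet, 2.85-fold higher. Fabp4, the fatty acid binding protein of adipocytes and macrophages, had 10.13 and 11.13, just at 2-fold, and fell short of it after quantile normalization. Vldlr, a lipoprotein receptor, had 7.06 and 8.23 and was 2.25-fold higher by the probe set used. Without probe sets prone to cross-hybridisation it had 6.21 and 6.26, with the chow signal under the floor, so that no ratio could be measured there. In triglyceride synthesis 4 of 13 measured genes were at least 2-fold higher and 1 lower, with a median of 0.13. Pparg, a nuclear receptor that drives fat storage, had 7.45 and 9.46 and was 4.02-fold higher, and Mogat2, a relative of Mogat1, was at least 2.18-fold higher.

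Gpam and Gpat4 encode glycerol-3-phosphate acyltransferases and moved apart. Gpam had 13.16 on chow and 14.20 on high-fat diet, a 2.06-fold difference, and Gpat4 had 10.79 and 9.73, 2.09-fold lower. Both lie near the threshold and did not reach 2-fold in every setting. Dgat1 and Dgat2, which carry out the last acylation, had log2 ratios of -0.31 and -0.04, and Gpat3, Agpat1, Agpat2, Agpat3, Lpin1 and Lpin2 lay between -0.44 and 0.31. Of 15 genes of fatty acid synthesis, Srebf1, the lipogenic transcription factor, had 11.21 and 12.66 and was 2.73-fold higher, while the elongase Elovl6 had 13.56 and 12.47 and was 2.12-fold lower. Among 20 fatty acid oxidation genes the median was 0.01. Vnn1, a pantetheinase, was 2.22-fold higher, the thioesterase Acot1 2.27-fold lower, and Pdk4, a kinase that inhibits pyruvate dehydrogenase, had 11.64 and 9.67 and was 3.90-fold lower.

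Genes of cholesterol synthesis were higher on the high-fat array nearly throughout. Of 19 measured, 18 had a ratio above 0, or 19 with equal medians, 9 were at least 2-fold higher (47.4%) and 0 lower, and the median log2 ratio was 0.98. Hmgcs1, which makes the precursor of mevalonate, had 11.91 on chow and 14.34 on high-fat diet, 5.39-fold higher. Dhcr7, the last enzyme of the pathway, had 9.30 and 11.51, 4.63-fold higher, and the methylsterol oxidase Msmo1 had 11.04 and 13.12, 4.24-fold higher. The squalene epoxidase Sqle was 2.96-fold, the mevalonate kinase Mvk 2.88-fold, Hsd17b7 2.29-fold, the isomerase Idi1 2.27-fold, the demethylase Cyp51 2.21-fold and Nsdhl 2.10-fold higher. Hsd17b7 dropped under 2-fold with its probe sets averaged. The only member below 0 was the isomerase Ebp, at -0.07. On the high-fat array 17 of the 19 genes had their highest signal of all 4 arrays.

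Promoter sequences are shown for genes of this group and of the endoplasmic reticulum chaperones below because each group moved largely one way and both are known to be controlled through promoters in which a CCAAT box, the site of the factor NF-Y, stands near a second element. RefSeq promoter windows on GRCm38.p6 were matched for 16 of the 19 cholesterol genes and 15 of the 17 chaperone genes. The 250 bases before the start were searched on both strands for CCAAT and for the sterol regulatory element TCACNCCAC. In the lines below, capitals mark matches to either motif, ATTGG being CCAAT on the other strand. The stretches are chr13:119690194-119690350 on the plus strand for Hmgcs1, chr8:64733589-64733673 on the minus strand for Msmo1, chr13:8885552-8885605 on the plus strand for Idi1 and chr5:4104698-4104766 on the minus strand for Cyp51.
Hmgcs1: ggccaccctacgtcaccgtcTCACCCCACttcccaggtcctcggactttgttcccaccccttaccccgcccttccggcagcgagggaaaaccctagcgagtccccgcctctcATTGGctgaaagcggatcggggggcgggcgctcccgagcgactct
Msmo1: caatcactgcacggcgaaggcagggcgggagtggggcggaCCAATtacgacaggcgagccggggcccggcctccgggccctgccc
Idi1: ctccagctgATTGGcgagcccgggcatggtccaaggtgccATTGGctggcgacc
Cyp51: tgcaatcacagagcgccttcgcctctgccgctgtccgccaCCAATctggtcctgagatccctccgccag

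CCAAT was present in at least 1 window of 16 of the 16 matched cholesterol genes. The share was 37.49% of all 27025 genes with a window and 40% of the 9683 measured genes with one. Among all genes with a ratio of 2-fold or more upward the share was 39.68%, and among those 2-fold or more downward it was 40.46%, close to that of measured genes. It was 55% in the glutathione and NRF2 list and 57.14% in the immediate early list. TCACNCCAC was present in 1 of the 16 cholesterol genes, Hmgcs1, against 1.225% of all genes. In the cholesterol and chaperone windows 1 CCAAT match overlapped another motif searched. A match is a description of the letters and not a mapped binding site.

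Endoplasmic reticulum chaperones showed the opposite direction. All 17 measured genes were lower on the high-fat array, or 16 with equal medians or quantile normalization, with a median log2 ratio of -0.53 and 3 at least 2-fold lower. Creld2, a secreted stress-induced chaperone, had 13.00 on chow and 11.28 on high-fat diet, 3.30-fold lower. Sdf2l1, a partner of BiP, had 11.60 and 10.18, 2.68-fold lower, and Manf, a secreted factor of the same stress response, had 13.58 and 12.46, 2.17-fold lower. The most abundant chaperone gene, Hspa5, which encodes BiP, had 15.04 and 14.43 and stayed within 2-fold. The chow array had the highest signal of the 4 arrays for 16 of the 17 genes, and the part of that array in the direction was not tested. CCAAT was found in 15 of 15 windows, shown here for chr15:88819528-88819612 on the plus strand of Creld2 and chr16:17132384-17132449 on the minus strand of Sdf2l1, with matches in capitals.
Creld2: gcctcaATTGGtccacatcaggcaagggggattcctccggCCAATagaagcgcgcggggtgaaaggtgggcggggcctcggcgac
Sdf2l1: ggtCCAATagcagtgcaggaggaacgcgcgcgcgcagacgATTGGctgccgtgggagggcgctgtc

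**Figure D3:**
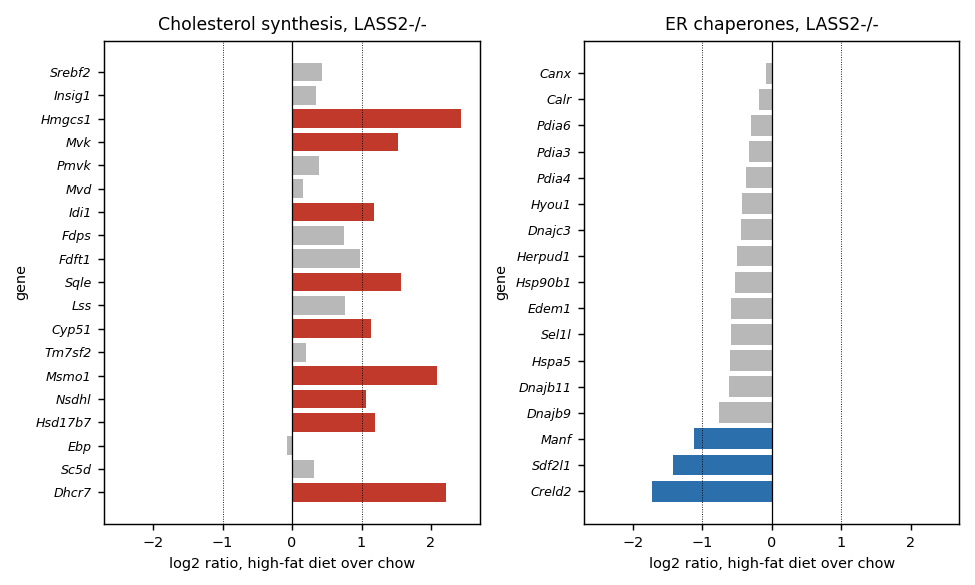
Log2 ratio of high-fat diet over chow on the LASS2-/- arrays (x axis) for cholesterol synthesis genes in pathway order (left) and endoplasmic reticulum chaperones (right), 1 bar per gene, red or blue where the ratio is at least 2-fold. Bars run to the right for 18 of 19 cholesterol genes and to the left for all 17 chaperone genes.

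Bile acid genes included both synthetic enzymes and transporters among the 4 of 17 that were at least 2-fold higher. Cyp7a1, the rate-limiting enzyme of bile acid synthesis, had 11.38 on chow and 12.99 on high-fat diet, 3.05-fold higher. Cyp8b1, which directs synthesis to cholic acid, had 10.91 and 12.68, 3.40-fold higher. The basolateral export pumps Abcc4, with 7.51 and 10.41, and Abcc3, with 10.90 and 12.30, were 7.47-fold and 2.65-fold higher. The uptake transporter Slco1a1 had 13.49 and 12.23 and was 2.39-fold lower. The list's median was 0.12, so these members stood apart from most of their group.

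Male-biased liver genes were mostly lower on the high-fat array. Of 11 measured, 10 had a ratio below 0, 4 were at least 2-fold lower and 0 higher, and the median was -0.84. Beside Hsd3b5 and Slco1a1, Ugt2b38, a glucuronosyltransferase, had 9.68 on chow and 7.25 on high-fat diet, 5.37-fold lower. Cyp4a12a, a fatty acid hydroxylase, had 12.85 and 11.84, 2.01-fold lower, and dropped under 2-fold with equal medians. Cyp7b1, Serpina12, Nudt7, Mup3, C6 and Cyp2d9 lay between -0.88 and -0.24, and only Elovl3, a fatty acid elongase, was above 0, at 0.66. Among 10 measured female-biased genes 3 were at least 2-fold higher and 0 lower, with a median of 0.48. Cyp2b9, a cytochrome P450 of female liver, had 7.72 and 10.63, 7.53-fold higher, and may share signal with its close relative Cyp2b13, which was higher by at least 0.68 on the log2 scale. Hao2 belongs to this list as well, and Prom1, a membrane glycoprotein, was 2.36-fold higher. Cyp17a1, Fmo2, Cux2, Acot3, Atp6v0d2 and Slc22a26 lay between -0.42 and 0.96.

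Growth hormone and leptin signalling had the lowest median of all lists, -0.85, with 6 of 15 genes at least 2-fold lower and 0 higher. Lepr, given above at 18.7-fold lower, had the largest ratio of the list. The other members that were lower are mainly targets and feedback inhibitors. Socs2, a growth hormone target that inhibits its receptor, had 12.93 on chow and 11.28 on high-fat diet, 3.13-fold lower. Socs3 had 10.88 and 9.37, 2.84-fold lower, and Cish had 10.83 and 9.67, 2.24-fold lower, and both encode inhibitors of the same family. Onecut1, a liver transcription factor responsive to growth hormone, had 11.45 and 9.35, 4.30-fold lower by the brighter of 2 probe sets, which were both lower. Igfbp1, a binding protein of insulin-like growth factors, had 14.95 and 13.27, 3.21-fold lower. The growth hormone receptor gene Ghr and the genes of its signalling chain differed less. Log2 ratios were -0.26 for Ghr, 0.50 for Jak2, -0.11 for Stat5a and 0.89 for Stat5b, and the hormone gene Igf1 had -0.27. Igfals, Igfbp2, Igfbp3 and Bcl6 lay between -0.98 and 0.21.

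Detoxification genes were higher in the glutathione and NRF2 branch. Of 24 measured glutathione S-transferases and NRF2 targets, 7 were at least 2-fold higher, 0 lower, and the median was 0.48. Beside Cbr3, the sulfiredoxin gene Srxn1 had 9.20 on chow and 11.47 on high-fat diet, 4.84-fold higher, and the quinone reductase Nqo1 had 7.39 and 9.59, 4.62-fold higher. The glutathione peroxidase Gpx2 was at least 4.43-fold higher. Gstm3, Gsta2 and Gstm2 were 4.21-fold, 2.42-fold and 2.02-fold higher, although probe sets of near-identical transferases can share signal. The high-fat array had the highest signal of all 4 arrays in 14 of the 24 genes, and in 5 of them it was at least 2-fold above each other array. The latter held for 38 of the 10111 genes at or above the floor on all 4 arrays, more than for any other array. The antioxidant response core TGACNNNGC was found in 5 of the 20 genes with a window. The share was 13.86% of measured genes, 20% of the chaperone genes and 21.43% of the immediate early genes. The 5 genes with a match were Gclm, Gsta3, Mgst1, Nfe2l2 and Txnrd1, all within 2-fold, and 0 of the 7 genes at least 2-fold higher had one. Only the 250 bases before the start were searched, so elements farther upstream could not be found and their absence is not shown.

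Cytochrome P450 genes of xenobiotic metabolism had a median of -0.09, which was 0.05 after quantile normalization. Ahr, the dioxin receptor, had 10.43 on chow and 12.03 on high-fat diet, 3.03-fold higher. Cyp2b10 was at least 3.39-fold higher from a signal under the floor, and higher by at least 0.78 on the log2 scale without probe sets prone to cross-hybridisation, a bound that falls short of 2-fold. Cyp2c54 and Cyp2c70 were 2.67-fold and 2.22-fold lower. Sult1e1, the estrogen sulfotransferase, was 2.06-fold higher. The organic anion transporters Slc22a29, with 7.85 and 10.80, and Slc22a27, with 7.14 and 9.33, were 7.74-fold and 4.57-fold higher, and these near-identical paralogs may share signal.

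Acute-phase genes split by member, also within families. Of 22 measured, 7 were at least 2-fold higher and 1 lower, and the median was 0.05. Among the serum amyloid A genes, Saa2 had 10.77 on chow and 13.20 on high-fat diet, 5.40-fold higher. Saa1 had 12.35 and 14.29, 3.84-fold higher, and Saa3 had 9.33 and 10.87, 2.90-fold higher, while Saa4 stayed within 2-fold. Saa1 and Saa2 are too similar to be kept apart with certainty. The orosomucoid gene Orm2 had 9.52 and 11.79, 4.79-fold higher, and Orm3 was 2.18-fold higher, while Orm1, bright on both arrays, had a log2 ratio of -0.29. Il1rn, the interleukin-1 receptor antagonist, was 2.14-fold higher and its receptor Il1r1 2.22-fold lower. Il1rn fell short of 2-fold with its probe sets averaged. The fibrinogen genes Fga, Fgb and Fgg had log2 ratios of -0.24, -0.40 and -0.37. Hp, Hpx, Cp, Crp, Apcs, Itih3, Itih4, Saa4, Steap4 and Lbp lay between -0.20 and 0.78, so the most abundant plasma protein genes stayed within 2-fold.

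Interferon response genes were above 0 in 24 of 25, with 7 at least 2-fold higher, 0 lower and a median of 0.48. Beside Ubd, Oasl1, an oligoadenylate synthetase-like protein, had 7.23 on chow and 9.48 on high-fat diet, 4.76-fold higher. Rsad2, the antiviral enzyme viperin, had 9.26 and 11.15, 3.71-fold higher, and Ifit1, an RNA-binding antiviral protein, had 7.60 and 9.48, 3.66-fold higher. Usp18, Oasl2 and Ifit2 were 2.74-fold, 2.58-fold and 2.42-fold higher. The high-fat array had the highest signal of the 4 arrays in 23 of the 25 genes.

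Macrophage and Kupffer cell markers were above 0 in 18 of 22, but 0 were at least 2-fold higher, and the median was 0.44. Their linear signals summed to 46172 on chow and 57791 on the high-fat array, against 38489 and 38347 on the wild type arrays. Their log2 ratios ran from -0.93 for the scavenger receptor Cd163 to 0.92 for the scavenger receptor Msr1. The Kupffer cell markers Clec4f, Vsig4, Timd4, Marco and Cd5l had -0.20, -0.04, 0.19, 0.28 and 0.04. Among 11 genes linked to lipid-associated macrophages 4 were at least 2-fold higher, including Mmp12, Gpnmb at 3.43-fold, the galectin Lgals3 at 2.30-fold and the annexin Anxa5 at 2.28-fold, and Trem2, the defining receptor, was under the floor on both arrays. Chemokine and monocyte genes had a median of 0.71, with Cxcl1 2.51-fold and Cxcl10 2.08-fold higher and Ccl2 and Cx3cr1 at least 2.46-fold and 2.13-fold higher. The other Cxcl1 probe sets had log2 ratios of 1.67 and 0.12. The part of macrophage markers in the interferon, chemokine and acute-phase values was not tested. T, NK, B and plasma cell markers had a median of -0.18 over 9 measured, with Cd3e, Cd3g and Cd4 under the floor on both arrays, and 3 neutrophil markers had 0.46.

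Stellate cell and fibrosis genes were above 0 in 23 of 25, with 3 at least 2-fold higher, or 5 with equal medians, 1 lower and a median of 0.63. The collagen gene Col3a1 had 10.44 on chow and 11.68 on high-fat diet, 2.36-fold higher, and Acta2, smooth muscle actin, had 7.79 and 8.83, 2.07-fold higher. The protease inhibitor Timp1 was at least 2.65-fold higher and Des, which encodes desmin, a marker of stellate cells, at least 3.04-fold lower. The 17 endothelial markers had a median of 0.01. Cytoskeletal and annexin genes had a median of 0.73 with 6 of 20 at least 2-fold higher and 0 lower: Anxa2 had 9.40 and 11.61, 4.63-fold higher, the tropomyosin Tpm2 had 8.33 and 10.39, 4.15-fold higher, and Krt8, an epithelial keratin, was 2.63-fold higher. Tubb2a and S100a10 were 2.56-fold and 2.34-fold higher by the probe set used, but Tubb2a had a log2 ratio of 0.93 without probe sets prone to cross-hybridisation and S100a10 0.49 with all probe sets averaged.

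Fetal and tumour associated liver genes had the highest median, 1.09, with 6 of 12 at least 2-fold higher and 1 lower. Ly6d led them. Lgals1, a galectin, had 11.56 on chow and 13.37 on high-fat diet, 3.50-fold higher, and Cd24a, a surface glycoprotein of immature cells, was 2.48-fold higher. Afp, the fetal plasma protein, was at least 2.68-fold higher from under the floor, and with its probe sets averaged the bound was at least 0.73 on the log2 scale. Tff3, a trefoil peptide, had 10.08 and 7.86 and was 4.66-fold lower. Cell cycle genes had 5 of 19 at least 2-fold higher and 0 lower. The replication licensing genes Mcm2, with 7.79 and 9.56, and Mcm5, with 7.23 and 8.97, were 3.42-fold and 3.33-fold higher, Mcm6 and Rrm2 were 2.01-fold and 2.28-fold higher but under 2-fold in another setting, and Ccnb2 was at least 2.10-fold higher. Of 13 measured genes in the list of p53 targets and apoptosis genes, 2 were at least 2-fold higher and 0 lower. Cdkn1a, the p21 cell cycle inhibitor, was 3.00-fold and the caspase gene Casp12 2.90-fold higher.

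Immediate early genes, which respond to growth factors and stress within minutes, were lower on the high-fat array in 11 of 17, with 7 at least 2-fold lower, 1 higher and a median of -0.65. Egr1 had 13.24 on chow and 10.62 on high-fat diet, 6.16-fold lower, and Btg2 had 12.00 and 9.76, 4.73-fold lower. Gadd45g, Nr4a1, Myc, Ier2 and Gadd45a were 4.17-fold, 3.33-fold, 2.79-fold, 2.24-fold and 2.04-fold lower, the last under 2-fold in another setting, and Klf6 was 2.33-fold higher. The chow array had the highest signal of all 4 arrays in 11 of the 17 genes. For Egr1 and Btg2 it stood at least 2-fold above each other array: Egr1 had 10.35 on the array labelled WT chow and 10.51 on the array labelled WT HFD, and Btg2 had 9.50 and 9.79. The ratios of Egr1 and Btg2 thus move with 1 array, and the part of that array was not tested. Other members were also lower on high-fat diet in wild type. Gadd45g had 12.06 on the array labelled WT chow and 9.81 on the array labelled WT HFD, Myc 9.89 and 7.66, and Nr4a1 8.80 and 7.61.

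Heat shock genes had a similar distribution. The chow array was the highest of the 4 in 10 of 13 heat shock and metallothionein genes, of which 3 were at least 2-fold lower on high-fat diet and 2 higher. Dnajb1, a co-chaperone, had 13.12 on chow and 11.39 on high-fat diet, 3.32-fold lower, and Hsph1 was 2.19-fold lower. Hspa1b was 2.06-fold lower, though not after quantile normalization or with equal medians, and cannot be kept apart from its near-identical copy Hspa1a. The metallothionein genes Mt1 and Mt2, which bind zinc and copper, were 2.13-fold and 2.14-fold higher, and Mt1 had a log2 ratio of 0.46 without probe sets prone to cross-hybridisation.

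**Figure D4:**
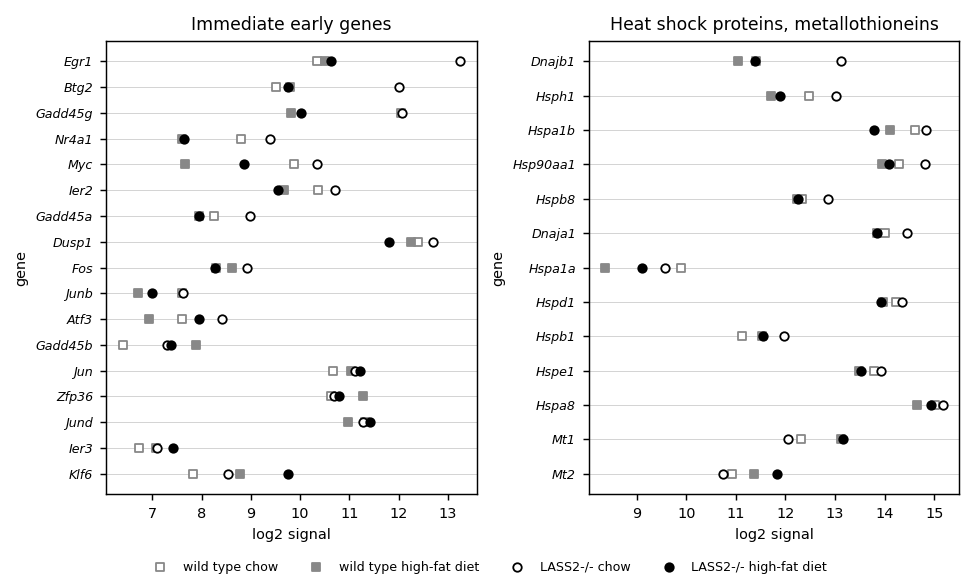
Log2 signal (x axis) of immediate early genes (left) and of heat shock and metallothionein genes (right) on each of the 4 arrays, with squares for wild type, circles for LASS2-/-, open for chow and filled for high-fat diet. The open circle of LASS2-/- chow lies to the right of the other arrays for Egr1 at 13.24, Btg2 at 12.00 and Dnajb1 at 13.12.

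Set beside the wild type pair, most of the largest ratios had the same direction there. The difference between the genotypes was not tested, since each ratio rests on 1 array per group. Over all 11783 genes measured on the wild type arrays, 2.26% were at least 2-fold higher and 1.32% lower, together 3.57%. The ratio of Cidea there was at least 30.8-fold, and Cidec was 12.1-fold, Slc22a29 11.1-fold and Cyp2b9 14.4-fold higher. Hsd3b5 was 58.6-fold, Lepr 10.3-fold, Fabp5 10.1-fold and Serpina4-ps1 16.1-fold lower. Lcn2 was 6.50-fold higher in wild type against 34.0-fold in LASS2-/-, Ly6d 6.72-fold against 30.2-fold, and Cbr3 3.05-fold against 23.0-fold. Abcc4 was 1.37-fold higher in wild type, against 7.47-fold. The cholesterol list had a median log2 ratio of 0.37 in wild type against 0.98, the interferon list 0.16 against 0.48, and the growth hormone and leptin list -0.61 against -0.85. The male-biased list had -0.81 against -0.84 and the female-biased list 0.94 against 0.48. Members of the growth hormone and leptin list went both ways. Socs2 was 14.8-fold lower in wild type against 3.13-fold, Onecut1 7.43-fold against 4.30-fold, Cish 5.69-fold against 2.24-fold and Socs3 4.91-fold against 2.84-fold. Lepr was 10.3-fold against 18.7-fold lower, and Igfbp1 1.52-fold against 3.21-fold.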

How the data were processed

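Liver RNA was read on 4 arrays, 1 per group, and the LASS2-/- pair was compared. Each deposited value is the log2 signal of a probe set, computed by the authors with MAS5 per the submitters' processing notes. Version and scaling target: not given in the sources used here. The table held 45037 probe sets, of which 34945 had 1 gene symbol, 932 several and 9160 none here, and 34741 were matched by gene number to mouse genes on GRCm38.p6.

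Probe sets under the array median on all 4 arrays were dropped, and the brightest remaining probe set on average stood for its gene. Ratios were taken after flooring each array at its median. The tools were numpy 2.4.6, matplotlib 3.10.9 and pandas 2.3.3 under Python 3.11.15, and the ratio step was tested on simulated data. No test was run: 1 array per group leaves 0 residual degrees of freedom, and the number of arrays limits the precision.

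The gene lists, comparison and members were chosen with earlier results of these data known. The text names the 15 highest and 15 lowest genes above the floor on both arrays, the 6 largest bounds per direction, up to 6 list members per direction at least 2-fold apart and up to 3 further bright members per list, every measured member of 6 lists (lipid droplet, triglyceride, male-biased, female-biased, growth hormone and leptin, acute-phase) and Cers2. Clone names and predicted genes were not named. Other genes named were chosen after their values were seen. Alternatives were averaging a gene's probe sets, a threshold of 1.5-fold, a floor at the 25th percentile with the same or all genes, equal medians, quantile normalization, leaving out _x_at and _s_at probe sets, which are prone to cross-hybridisation, and no filter.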

Additional observations from a re-analysis of the deposited data

Results flagged for a closer look

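In 5 genes the diet ratio of LASS2-/- liver was at least 2-fold and opposite to that of wild type, where it was also at least 2-fold; each direction rests on 1 array per group, and the difference was not tested. Tatdn1, the only one above the floor on all 4 arrays, had log2 signals of 8.37 on LASS2-/- chow and 9.92 on LASS2-/- high-fat diet, a log2 ratio of 1.55, against -1.23 in wild type. Arhgef25 had a log2 ratio of at least 1.12 in LASS2-/- and at most -1.48 in wild type, and the predicted gene Gm9112 had 1.16 in LASS2-/- and at most -1.26 in wild type. Arhgef40 had at most -1.19 in LASS2-/- and 1.40 in wild type. Sct, which encodes secretin, had at most -1.08 in LASS2-/- and at least 1.11 in wild type.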

How the results depend on the processing

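No paired analysis was possible because the labels carry no replicate numbers and each group has 1 array. The counts of genes at least 2-fold higher and lower, 389 and 236, were 387 and 239 after quantile normalization, 495 and 189 with equal medians, 360 and 236 with the mean of all probe sets, 356 and 235 without _x_at and _s_at probe sets, and 389 and 236 with no filter. A floor at the 25th percentile gave 961 and 1319 of 16038 genes, and 747 and 641 of 12453 when only the 12493 genes and probe sets that entered at the first floor were used, since dimmer signals then enter the ratios. A 1.5-fold threshold gave 1267 and 900. Of 155 genes named at 2-fold or more, 150 had a value in each of 7 settings that change the values, and 129 of these stayed at 2-fold or more in the same direction in all of them. The 5 others had no value without _x_at and _s_at probe sets. In 21 genes the value was under 2-fold in at least 1 setting, and in 4 of these, Vldlr, Afp, Cyp2b10 and Upk1b, it was there only a bound, which does not show a smaller ratio. The Vldlr bound turned sign, to -0.022, without _x_at and _s_at probe sets because the floors of the arrays differ, while its signals were 6.21 on chow and 6.26 on high-fat diet. Ugcg averaged -0.27 and Grb10 -0.52 over their probe sets. List medians near 0 changed sign with scaling: glucose genes went from -0.01 to 0.14 after quantile normalization, and circadian genes from -0.08 to 0.00 with equal medians. Dim genes scatter most, and bounds depend on the floor.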

Other observations

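Pericentral Wnt target genes, which mark the hepatocytes around the central vein, were above 0 in 12 of 14 on the LASS2-/- high-fat array, with 5 at least 2-fold higher, 0 lower and a median log2 ratio of 0.52. Rhbg, an ammonium transporter, had 7.81 on chow and 9.59 on high-fat diet, 3.44-fold higher. The Wnt feedback genes Rnf43 and Axin2 were 2.82-fold and 2.68-fold higher, and the stem cell receptor Lgr5 2.37-fold higher. Tbx3, a transcription factor, had 8.23 and 9.23, just at 2-fold, and fell short of it in other settings. The log2 ratio of Axin2 in wild type was -0.07, and the difference was not tested.

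Genes of glycogen and iron handling differed singly. Ppp1r3c, which targets protein phosphatase to glycogen, had 9.63 on chow and 11.67 on high-fat diet, 4.13-fold higher, its relative Ppp1r3g had 10.41 and 8.95, 2.76-fold lower, and G6pc, the last enzyme of glucose release, had 14.28 and 13.03, 2.37-fold lower. Hamp2, a hepcidin gene, had 13.55 and 12.25, 2.47-fold lower, and Id1, a target of the BMP pathway that controls hepcidin, had 9.92 and 8.36, 2.95-fold lower, while the BMP co-receptor gene Hjv was 2.18-fold higher and fell short of 2-fold in other settings. C8b, a complement component, was 2.64-fold lower and the liver transcription factor Foxa1 2.45-fold lower. Ddit4, a stress-induced inhibitor of mTOR signalling, was 2.42-fold higher and the asparagine synthetase gene Asns at least 2.67-fold lower. Of 23 sphingolipid enzyme genes 0 were at least 2-fold higher and 1, the glucosylceramide synthase gene Ugcg, was 2.14-fold lower, while the median was 0.19. The shares over all genes were 3.25% higher and 1.97% lower. The other Ugcg probe sets above the floor disagreed, with log2 ratios of -0.39 and 0.69. Respiratory chain genes had 0 of 22 past 2-fold in either direction, and a median of -0.13, against 0.02 over all genes. That median depended on scaling: it was -0.05 with equal medians and -0.002 after quantile normalization, where 10 of the 22 lay above 0.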
